A study of Mus musculus with 4 samples.

Results

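The genes described here are 8 symbols that mark monocytes and macrophages in mouse tissue: Marco, Lyz1, Lyz2, Cd68, Cd14, Ms4a6c, Fcgr1 and Mrc1. They were taken by exact symbol from the deposited count tables, which hold all 8 among 24015 symbols. The tables come from RNA-seq of hematopoietic stem and progenitor cells (HSPC) purified by cell sorting, with 2 caNIK libraries and 2 control libraries. In caNIK mice a mutant NIK that TRAF3 cannot target, kept silent at the Rosa locus by a loxP-flanked STOP, was switched on by the Vav-iCre driver. The control is labelled only as control, and the sources used here do not say which of these alleles those mice carried, nor the sort markers, age, tissue and number of animals. Vav-iCre acts across the blood system, so monocytes and macrophages of a caNIK mouse would carry the activated kinase as well as its stem cells. Nothing in the labels says that the libraries of a group came from separate animals, and the p-values reflect only how far these samples lie apart, a spread that may be technical.

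Monocytes arise in bone marrow from myeloid progenitors, and macrophages either derive from monocytes or are seeded before birth and persist in tissue. Both take up particles, debris and microbes through surface receptors and digest them in lysosomes, and the identity genes encode parts of that machinery. NIK starts the non-canonical NF-kB pathway, in which p100 is processed to p52 and acts with RelB.

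The 4 libraries held between 18574452 and 23162766 counts. Map3k14, the gene of NIK, lay at 177 and 192 CPM in caNIK replicates 1 and 2, against 30.2 and 25.1 CPM in control replicates 1 and 2 (TMM-normalised CPM, that is counts scaled to library size, the level used throughout; log2 fold change 2.74 ± 0.17 SE). Kit, which marks progenitors, lay at 558 and 506 CPM in caNIK against 610 and 613 CPM in control. Cd34 fell to 143 and 84.1 CPM in caNIK against 793 and 642 CPM in control, and Ly6a (Sca-1) rose to 99.7 and 46.5 CPM in caNIK against 16.8 and 8.14 CPM in control (edgeR adjusted p = 0.0013 and 0.011). Emr1, the gene of the macrophage antigen F4/80, was present at 5.91 and 8.77 CPM in caNIK and at 2.18 and 5.96 CPM in control (edgeR adjusted p = 0.33). Its log2 fold change was 0.84, against a median of 0.92 over the 24 tested macrophage genes of its list, which is given further on. In that list 5 genes were higher and 0 lower, and 19, Emr1 among them, did not pass. Of all tested genes, 13.8% were higher and 8.21% lower.

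The windows before the transcription start are shown for Lyz1 and Lyz2 because these neighbouring copies are close in sequence and had different values, and for Marco, Ms4a6c and Mrc1 because these lay without overlap between the groups, the first pair higher and Mrc1 lower in caNIK. Each is the 200 bases before a RefSeq start site, build GRCm38.p6, read 5′ to 3′ on the gene's strand. The table held a window for 7 of the 8 genes, all but Cd14. In Lyz1 (chr10:117292869-117293068, minus strand) and Lyz2 (chr10:117282273-117282472, minus strand), capitals mark bases that differ from the other copy at the same distance from the start, with no gaps allowed.
Lyz1: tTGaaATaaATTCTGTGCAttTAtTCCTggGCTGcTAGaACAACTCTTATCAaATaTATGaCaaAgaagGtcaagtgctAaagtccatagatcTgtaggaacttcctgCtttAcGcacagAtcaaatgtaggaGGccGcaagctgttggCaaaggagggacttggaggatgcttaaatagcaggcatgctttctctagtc
Lyz2: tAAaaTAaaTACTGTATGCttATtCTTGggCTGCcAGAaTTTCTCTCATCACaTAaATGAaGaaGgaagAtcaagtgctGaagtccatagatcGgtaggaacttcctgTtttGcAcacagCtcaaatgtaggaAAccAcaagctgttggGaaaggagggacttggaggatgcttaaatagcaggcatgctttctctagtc
Compared in this way, 141 of 200 bases were identical, and the last 50 before the start were identical in both. The dense capitals far from the start include bases that match when one copy is shifted against the other. The count of identical bases is thus a lower limit of their likeness. In Marco (chr1:120505025-120505224, minus strand), Ms4a6c (chr19:11469168-11469367, plus strand) and Mrc1 (chr2:14229214-14229413, plus strand), capitals mark matches to the motifs named in the next paragraph.
Marco: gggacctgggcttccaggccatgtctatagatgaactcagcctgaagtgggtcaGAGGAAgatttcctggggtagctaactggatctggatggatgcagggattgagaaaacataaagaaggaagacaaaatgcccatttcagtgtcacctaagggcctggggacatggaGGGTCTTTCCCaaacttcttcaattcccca
Ms4a6c: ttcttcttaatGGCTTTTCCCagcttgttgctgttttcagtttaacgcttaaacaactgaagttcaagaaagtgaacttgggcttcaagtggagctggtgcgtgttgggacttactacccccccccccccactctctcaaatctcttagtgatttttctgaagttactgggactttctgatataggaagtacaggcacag
Mrc1: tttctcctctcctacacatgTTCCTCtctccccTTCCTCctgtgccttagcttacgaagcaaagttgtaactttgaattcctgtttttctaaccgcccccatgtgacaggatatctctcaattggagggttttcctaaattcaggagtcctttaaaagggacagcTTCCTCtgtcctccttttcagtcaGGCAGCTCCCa

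Motifs were searched on both strands in the 250 bases before the start. The PU.1 core GAGGAA, bound by the transcription factor that directs myeloid fate, was found in 4 of 7 windows, those of Marco, Cd68, Fcgr1 and Mrc1, against 23.3% of all 32851 windows in the table. The loose NF-kB pattern GGGNNNNNCC was found in Marco, Ms4a6c and Mrc1, against 45.8% of all windows. Marco had 3 such matches, of which a pair overlapped 29 and 30 bases before the start, and the others had 1 each. The C/EBP pattern TTGCNNAA was found in Lyz1 and Cd68, against 9.56% of all windows. The interferon response pattern GAAANNGAAA was found in 0 of 7, against 2.98% of all. A match is a string in the window and was not tested as a binding site.

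The identity genes did not change as a block in caNIK HSPC. Ms4a6c, Lyz2 and Marco rose, Cd68, Fcgr1 and Lyz1 did not pass the test, and Mrc1 was at lower values without passing. Cd14 was too low in every library to be tested. In edgeR's quasi-likelihood test 3 of the 8 genes were higher and 0 lower, with a threshold of 0.05 on p-values adjusted by Benjamini and Hochberg's method over all 14191 genes tested. Of all tested genes, 13.8% were higher and 8.21% lower, together 22.0% past the threshold. Both caNIK libraries lay above both control libraries for 3 of the 8 genes and below them for 1, Mrc1, against 33.3% and 31.6% of all tested genes. The median log2 fold change was 1.27 over the 7 tested identity genes and 0.0038 over all tested genes. Since the filter on low counts kept Marco only through its caNIK reads, these counts describe the genes and support nothing further. The same holds for the counts of the other lists below, where genes such as Msr1, Scara5, Clec4n and Cxcl9 were kept in that way. The count of higher genes was 4 without caNIK replicate 1 or without control replicate 1, and 2 without caNIK replicate 2.

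**Figure D1:**
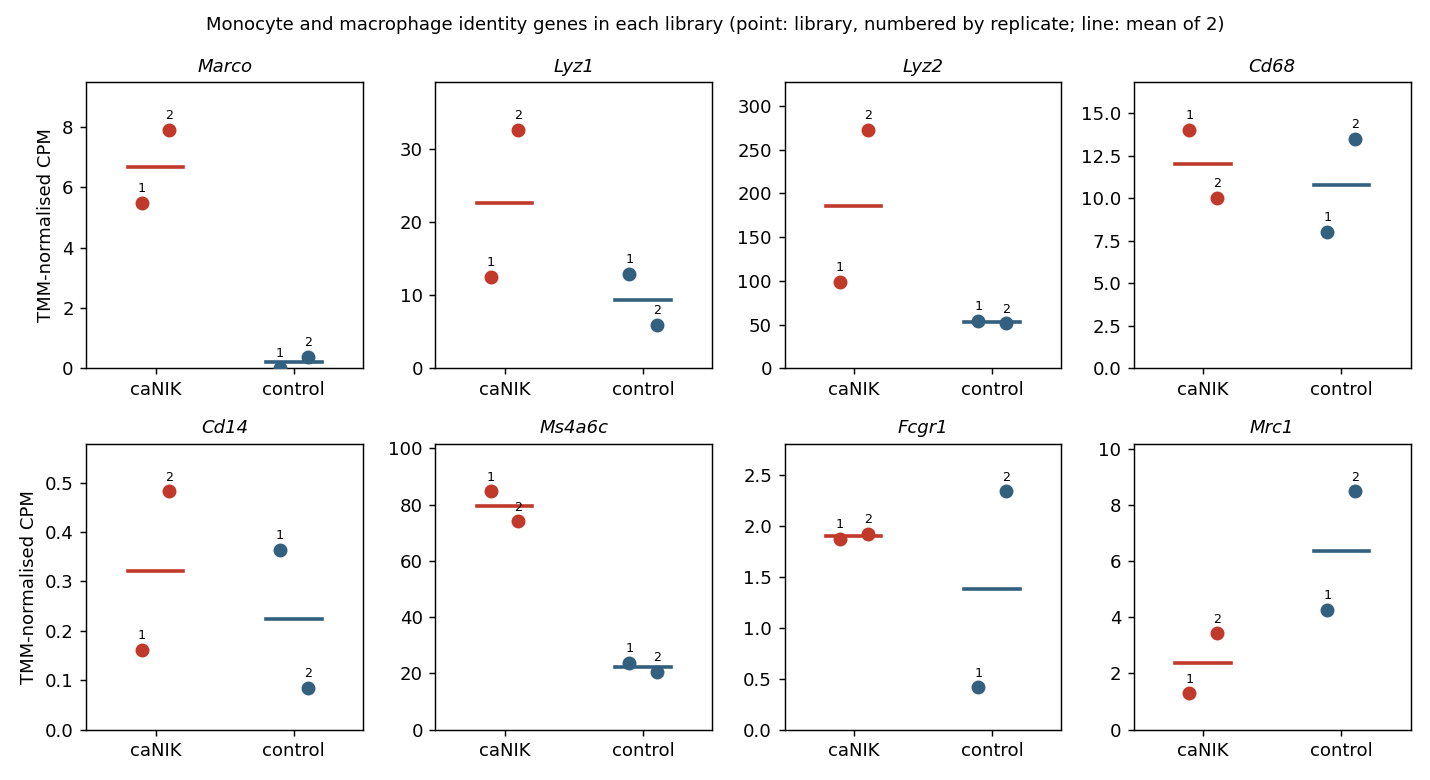
Level of each identity gene in the 4 libraries, in TMM-normalised CPM on linear axes that start at 0. Points are libraries numbered by replicate, with caNIK left of control, and the line is the mean of 2 libraries. Marco, Lyz2 and Ms4a6c separate upward in caNIK, Mrc1 separates downward, and the other 4 overlap.

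Lyz2 and Lyz1 encode lysozyme, the secreted and granule enzyme that cuts bacterial cell walls. Lyz2 is the form widely used as a marker of monocytes, macrophages and neutrophils, and Lyz1 is best known from Paneth cells of the gut. Lyz2 was counted 1834 and 5655 times in caNIK replicates 1 and 2, against 1047 and 1205 times in control replicates 1 and 2. Its level was 98.5 and 273 CPM in caNIK, against 54.3 and 51.3 CPM in control. The groups did not overlap, but the caNIK libraries lay far apart, with replicate 2 at 2.77 times replicate 1, whereas the control libraries were close. Lyz2 rose by 1.81 ± 0.43 (log2, SE) with a 95% interval of 0.78 to 2.85 (edgeR adjusted p = 0.028). Without caNIK replicate 2 its log2 fold change was 0.89, and without caNIK replicate 1 it was 2.37, and it passed in both fits (edgeR adjusted p = 0.019 and 0.00055).

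Lyz1 was counted 233 and 676 times in caNIK, against 248 and 139 times in control. Its level was 12.5 and 32.6 CPM in caNIK, against 12.9 and 5.92 CPM in control. The groups overlapped, since caNIK replicate 1 lay just under control replicate 1, and caNIK replicate 2 stood alone at the top. The log2 fold change of Lyz1 was 1.27 ± 0.54 (SE), with a 95% interval of -0.03 to 2.56, and it did not pass (edgeR adjusted p = 0.15). It passed without control replicate 1 (1.92, edgeR adjusted p = 0.020), without caNIK replicate 1 (1.80, 0.043) and with no filter beyond 1 read (1.27, 0.032). The log2 fold change of Lyz1 was only 0.40 without caNIK replicate 2 and 0.81 without control replicate 2, and it did not pass in either fit (edgeR adjusted p = 0.64 and 0.33).

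Lyz1 and Lyz2 share enough sequence for reads to be assigned to the wrong copy. Over 1262 aligned bases of their GENCODE M21 transcripts 96.0% were identical, and 15.4% of the windows of 50 bases in the Lyz2 transcript occurred exactly in Lyz1. The sources used here do not say how reads that match several places were counted. Among the counts of both genes, Lyz1 held 11.3% (95% Wilson interval 9.98 to 12.7%) in caNIK replicate 1 and 10.7% (9.94 to 11.5%) in caNIK replicate 2, against 19.2% (17.1 to 21.4%) in control replicate 1 and 10.3% (8.83 to 12.1%) in control replicate 2. Control replicate 1 thus stood apart from the other 3 libraries by more than counting error, which is all that these intervals cover. With the counts of both copies summed into 1 gene before the fit, the log2 fold change was 1.74 ± 0.43 (SE; edgeR adjusted p = 0.031). Since Lyz2 held most of these counts in every library, the summed fit largely repeats that of Lyz2. It does not tell whether Lyz1 changed or whether reads were assigned to the wrong copy.

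Ms4a6c encodes a protein of the MS4A family that spans the membrane several times, and is expressed by mouse monocytes and macrophages. It was counted 1578 and 1536 times in caNIK, against 458 and 484 times in control. Its level was 84.7 and 74.0 CPM in caNIK, against 23.8 and 20.6 CPM in control. The libraries of each group lay close together, and the gap between groups was far wider than the spread within them. Ms4a6c rose by 1.84 ± 0.18 (log2, SE), with a 95% interval of 1.42 to 2.26 (edgeR adjusted p = 0.00093). Its log2 fold change stayed between 1.74 and 1.93 with any 1 library left out, and it passed in each of these fits. In GENCODE M21, 1088 of the 2050 exon bases of Ms4a6c are overlapped by BE692007 on the opposite strand, and without a stated strand setting reads of these genes cannot be told apart. The Ms4a6b transcript is 88.9% identical to that of Ms4a6c over 1474 aligned bases, and with Ms4a6b, Ms4a6c and Ms4a6d summed the log2 fold change was 1.71 (edgeR adjusted p = 0.0016).

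Other genes of the MS4A family differed among themselves. Of 9 other tested family members, 2 rose, none fell and 7 were not past the threshold, with a median log2 fold change of 1.44 (1 fell without control replicate 1). Ms4a4c rose to 59.0 and 18.3 CPM in caNIK against 2.02 and 0.980 CPM in control (log2 fold change 4.70 ± 0.67 SE; edgeR adjusted p = 0.0044). Ms4a6b rose to 54.2 and 33.2 CPM in caNIK against 18.1 and 13.2 CPM in control (1.48 ± 0.30 SE; 0.015). In both, caNIK replicate 1 was the higher caNIK library, the reverse of Lyz2. Ms4a6d lay at 0.859 and 6.60 CPM in caNIK against 0.882 and 0.852 CPM in control, so that only caNIK replicate 2 stood out (edgeR adjusted p = 0.17).

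Marco encodes a class A scavenger receptor with a collagen-like stem, which binds bacteria and particles and is known from macrophages of the splenic marginal zone, peritoneum and lung. It was counted 102 and 164 times in caNIK, against 0 and 9 times in control. Its level was 5.48 and 7.91 CPM in caNIK, against 0 and 0.383 CPM in control. A count of 0 in control replicate 1 allows up to 0.156 CPM, 3 counts of that library. Both caNIK libraries were far above both control libraries, and Marco was near silent in control. Marco rose by 5.01 ± 1.01 (log2, SE), with a 95% interval of 2.58 to 7.43 (edgeR adjusted p = 0.016). The call was lost without caNIK replicate 2 (log2 fold change 4.72, edgeR adjusted p = 0.064). Without control replicate 1 the log2 fold change was 4.09 (edgeR adjusted p = 0.0023), and without control replicate 2 no control read is left, so the fitted size then has no meaning.

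Other scavenger receptors went both ways. Of 13 other tested genes of that list, 3 rose, 2 fell and 8 were not past the threshold, with a median log2 fold change of -0.05. Msr1, another class A scavenger receptor, rose to 1.34 and 7.33 CPM in caNIK against 0 and 0.298 CPM in control (log2 fold change 4.73 ± 1.30 SE; edgeR adjusted p = 0.044). Like Marco it was near silent in control, and its caNIK libraries were wider apart. Cxcl16, a chemokine that also acts as a scavenger receptor, and Scara5, a ferritin receptor, rose by 4.18 ± 0.52 and 5.57 ± 1.11 (edgeR adjusted p = 0.0026 and 0.015). Scara5 was also near silent in control, at 3.33 and 1.59 CPM in caNIK against 0 and 0.0852 CPM in control. The filter on low counts kept Msr1 and Scara5 only through their caNIK reads, so the count of genes that rose supports nothing further. Scarb1, the receptor of high-density lipoprotein, and Scarf1 fell, with log2 fold changes of -1.14 ± 0.19 and -1.83 ± 0.33 (edgeR adjusted p = 0.0080 and 0.011).

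Cd68 encodes macrosialin, a lysosomal glycoprotein used as a general stain for macrophages. It was counted 261 and 208 times in caNIK, against 155 and 317 times in control. Its level was 14.0 and 10.03 CPM in caNIK, against 8.04 and 13.5 CPM in control. The control libraries enclosed the lower caNIK library, and the spread within control exceeded the difference of the group means. The log2 fold change of Cd68 was 0.16 ± 0.36 (SE), with a 95% interval of -0.71 to 1.03 (edgeR adjusted p = 0.80).

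Mrc1 encodes the mannose receptor CD206, which takes up glycoproteins with mannose ends and marks resident and alternatively activated macrophages. It was counted 24 and 71 times in caNIK, against 82 and 199 times in control. Its level was 1.29 and 3.42 CPM in caNIK, against 4.25 and 8.48 CPM in control. The groups did not overlap, and replicate 2 exceeded replicate 1 by 2.66 times in caNIK and by 1.99 times in control. The log2 fold change of Mrc1 was -1.43 ± 0.62 (SE), with a 95% interval of -2.92 to 0.06, and it did not pass (edgeR adjusted p = 0.15). It was -2.31 without caNIK replicate 2, -1.85 without control replicate 1, -0.90 without caNIK replicate 1 and -0.85 without control replicate 2. The tested relatives of Mrc1 had the opposite sign. Mrc2 (Endo180), a collagen receptor, rose to 54.8 and 31.0 CPM in caNIK against 1.19 and 0.810 CPM in control (5.42 ± 0.41 SE; edgeR adjusted p = 0.00046). Ly75 (DEC-205), an endocytic receptor of dendritic cells, rose to 46.9 and 52.7 CPM in caNIK against 16.1 and 12.8 CPM in control (1.79 ± 0.21 SE; edgeR adjusted p = 0.0020).

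Fcgr1 encodes CD64, the high-affinity receptor for IgG, which monocytes and macrophages carry and interferon gamma is known to raise. It was counted 35 and 40 times in caNIK, against 8 and 55 times in control. Its level was 1.88 and 1.93 CPM in caNIK, against 0.415 and 2.34 CPM in control. The caNIK libraries nearly coincided, between control libraries that differed by 5.65 times. The log2 fold change of Fcgr1 was 0.45 ± 0.84 (SE), with a 95% interval of -1.55 to 2.45 (edgeR adjusted p = 0.75). Its sign rested on which control library was used, with -0.31 without control replicate 1 and 2.18 without control replicate 2 (edgeR adjusted p = 0.86 and 0.15). Fcer1g, the signal chain that Fcgr1 needs at the surface, rose to 44.7 and 34.6 CPM in caNIK against 13.4 and 17.0 CPM in control (1.38 ± 0.24 SE; edgeR adjusted p = 0.0086). Of the 7 other tested genes of the list of Fc gamma receptors and their signal chain, Fcer1g was the only gene that passed (2 were higher without control replicate 2, and 1 was lower without caNIK replicate 1).

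Cd14 encodes the co-receptor that hands lipopolysaccharide to TLR4 and MD-2, and is a standard surface marker of monocytes. It was counted 3 and 10 times in caNIK, against 7 and 2 times in control. Its level was 0.161 and 0.482 CPM in caNIK, against 0.363 and 0.0852 CPM in control. These counts were below the filter, the groups overlapped, and a difference was not detectable at this depth. In the fit with no filter beyond 1 read the log2 fold change was 0.55 ± 1.52 (SE), with a 95% interval of -2.64 to 3.73 (edgeR adjusted p = 0.85). Its partners Tlr4 and Ly96 (MD-2) were measured and did not pass, at 5.10 and 4.87 CPM in caNIK against 12.6 and 6.65 CPM in control for Tlr4 (log2 fold change -0.94 ± 0.42 SE; edgeR adjusted p = 0.16). Of 9 tested genes of that receptor complex other than Cd14, none rose and 2 fell, with a median log2 fold change of -0.11 (1 fell without caNIK replicate 2 or without control replicate 1, and 1 rose without control replicate 2). The genes that fell were Lbp, the plasma protein that delivers lipopolysaccharide to Cd14, and Cd180, a TLR4-like receptor, with log2 fold changes of -3.89 ± 0.43 and -1.34 ± 0.38 (edgeR adjusted p = 0.0016 and 0.049).

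**Figure D2:**
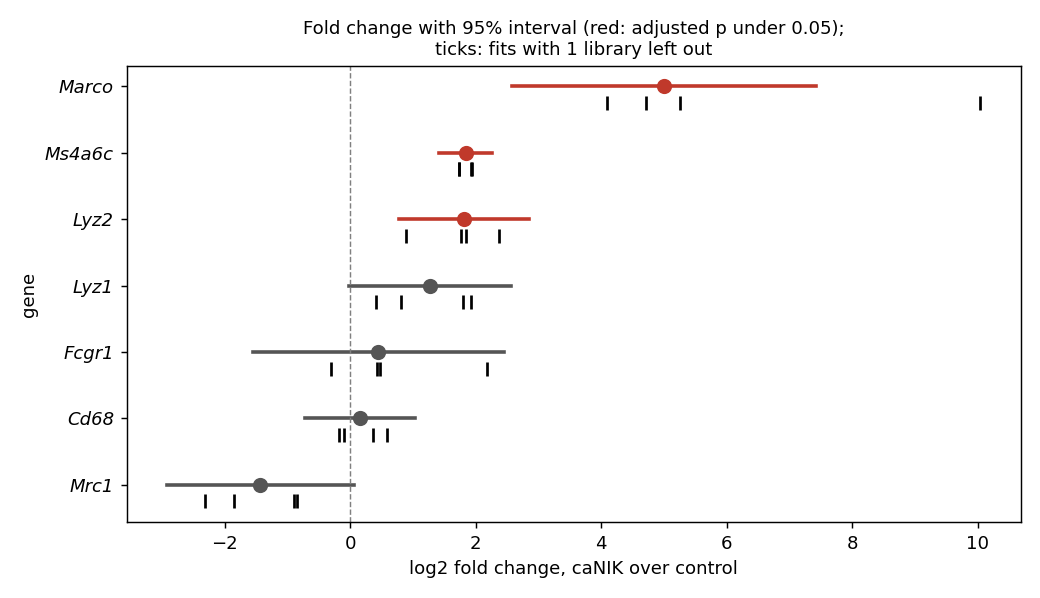
Log2 fold change, caNIK over control, of the 7 tested identity genes with 95% intervals, red where the adjusted p is under 0.05. Black ticks are the fits with 1 library left out; the Marco tick near 10 is the fit whose remaining control library has no Marco read, and the ticks of Cd68 and Fcgr1 fall on both sides of 0.

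Levels of the identity genes were ordered per length, as CPM per kilobase of GENCODE M21 exons. In caNIK, Lyz2 was highest with 74.8 and 207 CPM per kilobase. Ms4a6c followed at 41.3 and 36.1, Lyz1 at 9.91 and 25.8 and Cd68 at 11.2 and 7.98 CPM per kilobase. Below them came Marco at 2.85 and 4.11, Fcgr1 at 0.726 and 0.745, Mrc1 at 0.202 and 0.537 and Cd14 at 0.0930 and 0.278 CPM per kilobase. Of neighbours in this order, Lyz1 and Cd68 overlapped, as did Mrc1 and Cd14. In control, Lyz2 was again highest (41.3 and 39.0 CPM per kilobase), ahead of Ms4a6c (11.6 and 10.1), Cd68 (6.40 and 10.7) and Lyz1 (10.2 and 4.69). Mrc1 (0.668 and 1.33), Fcgr1 (0.160 and 0.905), Cd14 (0.210 and 0.0492) and Marco (0 and 0.199) closed the control order. There Ms4a6c, Cd68 and Lyz1 overlapped with their neighbours, and so did the last 4 in turn. Marco stood last in control, whereas in caNIK it stood above Fcgr1, Mrc1 and Cd14. The lengths come from a GRCm38 annotation, whereas the submitters' processing notes name mm9, so the order is approximate.

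The library to library pattern also differed among the identity genes. Within caNIK, replicate 2 exceeded replicate 1 by 2.77 times in Lyz2, 2.60 times in Lyz1 and 2.66 times in Mrc1, whereas Ms4a6c and Fcgr1 stood at 0.874 and 1.03 times. Within control, the same ratio was 0.945 in Lyz2, 0.460 in Lyz1, 1.68 in Cd68 and 5.65 in Fcgr1. Over the 8 genes together, summed levels were 219 and 403 CPM in caNIK against 104 and 103 CPM in control. Lyz2, their most abundant gene, alone made up the larger part of the sum in caNIK replicate 2. Without Lyz2 the sums were 120 and 130 CPM in caNIK against 49.7 and 51.3 CPM in control, and did not overlap. The non-member genes nearest in pattern, by Euclidean distance of centred log2 CPM over the 4 libraries, were Gpr64 (distance 0.03) and H2-M3 (0.11) for Ms4a6c. They were Spon1 (0.18) and Fbxo47 (0.32) for Lyz2, and 1700028E10Rik (0.30) and Celf4 (0.40) for Lyz1. All of these but H2-M3 lay at or under 3.37 CPM in every library.

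Most other macrophage genes did not pass the test, which was also so over all tested genes, with 13.8% higher and 8.21% lower. Of 24 tested macrophage genes outside the 8, 5 were higher, 0 lower and 19 did not pass, with a median log2 fold change of 0.92. Clec4n (Dectin-2), a receptor for fungal sugars, rose to 10.2 and 8.39 CPM in caNIK against 0.363 and 0.469 CPM in control (4.45 ± 0.49 SE; edgeR adjusted p = 0.0015). Mpeg1, a pore-forming protein of phagocytes, rose to 132 and 111 CPM in caNIK against 32.9 and 51.0 CPM in control (1.53 ± 0.24 SE; 0.0060). Csf1r, the receptor that macrophages need to survive, lay at 40.1 and 74.4 CPM in caNIK against 22.0 and 40.0 CPM in control and did not pass (edgeR adjusted p = 0.15). The count of higher genes was 13 without control replicate 2 and 3 without caNIK replicate 2. Vsig4, a complement receptor of resident macrophages, was listed at 0 in all 4 libraries.

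Of 21 other monocyte genes, 6 rose, 1 fell and 14 were not past the threshold, with a median log2 fold change of 0.67. Chil3, a chitinase-like secreted protein, and Pglyrp1, a peptidoglycan-binding protein, rose by 4.12 ± 0.48 and 2.18 ± 0.28 (edgeR adjusted p = 0.0020 and 0.0031), while Plac8 fell (-1.33 ± 0.27; 0.016). Higher genes numbered 3 without caNIK replicate 2, and lower genes 3 without caNIK replicate 1 and 2 without control replicate 1. Of 19 tested transcription factors of monocyte and macrophage fate, 3 were higher, 2 lower and 14 did not pass, with a median of 0.27. Spic, which directs red pulp macrophages, and Irf5, an interferon regulatory factor, rose by 3.39 ± 0.39 and 1.26 ± 0.17 (edgeR adjusted p = 0.0019 and 0.0034). Spi1 (PU.1) and Cebpa, factors of early myeloid fate, fell, with log2 fold changes of -0.59 ± 0.16 and -1.63 ± 0.36 (edgeR adjusted p = 0.045 and 0.022). Lower factors numbered 1 without caNIK replicate 2 or without control replicate 2, and higher factors 2 without caNIK replicate 1. Genes of alternative activation had 4 higher and 0 lower of 8 tested (2 higher without caNIK replicate 2), and genes of inflammatory activation 3 higher and 1 lower of 11 (5 higher without control replicate 1), with medians of 1.38 and 1.22. Among the higher ones were Pdcd1lg2 (3.10 ± 0.31), the ligand PD-L2, and the chemokine genes Cxcl9 and Cxcl10 (7.20 ± 0.54 and 7.64 ± 0.64). The lower gene was Il12a (-1.94 ± 0.27), and each of these was past the threshold. Some higher genes stand in several lists, so the list counts are not separate results. Chil3 is in the monocyte and alternative activation lists. Msr1 and Fcer1g are in the macrophage list and also in the scavenger receptor and Fc gamma receptor lists, respectively.

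Markers of several other cell types moved with the same groups, and their part in the values of the identity genes was not tested. In bulk RNA, fewer cells of a type and less RNA per cell cannot be told apart. The sums of B cell, T and NK cell, eosinophil, and endothelial and stromal markers overlapped between groups. Of 10 tested B cell markers 1 was higher and 4 lower. Among the lower ones, Vpreb1 and Igll1 were kept by the filter on low counts only through their control reads. Of 12 tested T and NK cell markers 1 was higher and 0 lower. The counts of lower B cell markers and of higher T and NK cell markers changed with any 1 library left out. The megakaryocyte sum lay higher in caNIK, but overlapped without Itgb3, its most abundant gene. Without theirs, Prg2 and Col1a1, the eosinophil and the endothelial and stromal sums lay lower in caNIK. The summed level of the 14 neutrophil markers in the files was 394 and 508 CPM in caNIK against 1281 and 3140 CPM in control. Mpo alone made up 61.3 and 66.0 CPM of these sums in caNIK and 1038 and 2503 CPM in control, and without it the sums overlapped, at 333 and 442 CPM in caNIK against 244 and 637 CPM in control. Within that list 6 of 14 genes were higher and 3 lower, the granule enzyme genes Mpo and Prtn3 falling (-4.80 ± 0.43 and -3.48 ± 0.57) and Ngp and S100a9, of later granulocytes, rising (3.30 ± 0.19 and 3.36 ± 0.39; each past the threshold). Lyz2 is also a neutrophil gene. Dendritic cell markers summed to 1082 and 1348 CPM in caNIK against 370 and 423 CPM in control, with 6 of 11 tested genes higher and 0 lower. Without Cd24a, their most abundant gene, they summed to 706 and 715 CPM in caNIK against 86.2 and 84.9 CPM in control. Of this, Fscn1 alone made up 598 and 634 CPM in caNIK and 51.7 and 51.9 CPM in control. Mast cell and basophil markers summed to 2785 and 1372 CPM in caNIK against 70.5 and 140.0 CPM in control, with 8 of 10 tested genes higher and 0 lower. Erythroid markers summed to 3373 and 5120 CPM in caNIK against 627 and 1076 CPM in control, with 5 of 8 tested genes higher and 0 lower. The adult globin genes Hbb-b1 and Hba-a1 were listed at 0 in every library, while Alas2 lay at 234 and 311 CPM in caNIK. How reads that match several places were counted is not stated, so these zeros are not read as absence of expression. Stem and progenitor markers summed to 1984 and 1653 CPM in caNIK against 3480 and 3163 CPM in control, with 5 of 15 lower and 2 higher (9 lower without caNIK replicate 1). The other macrophage genes summed to 465 and 469 CPM in caNIK against 195 and 314 CPM in control, and the other monocyte genes to 608 and 453 CPM in caNIK against 575 and 678 CPM in control. The monocyte sum overlapped between groups, but without Plac8, its most abundant gene, it was 443 and 360 CPM in caNIK against 261 and 342 CPM in control and did not overlap. The macrophage sum did not overlap with or without Mpeg1, its most abundant gene. Nor did the mast cell and basophil sum without Tpsb2, the erythroid sum without Car2 or the stem and progenitor sum without Kit. Car2 alone made up 1860 and 2604 CPM of the erythroid sum in caNIK and 318 and 441 CPM in control.

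**Figure D3:**
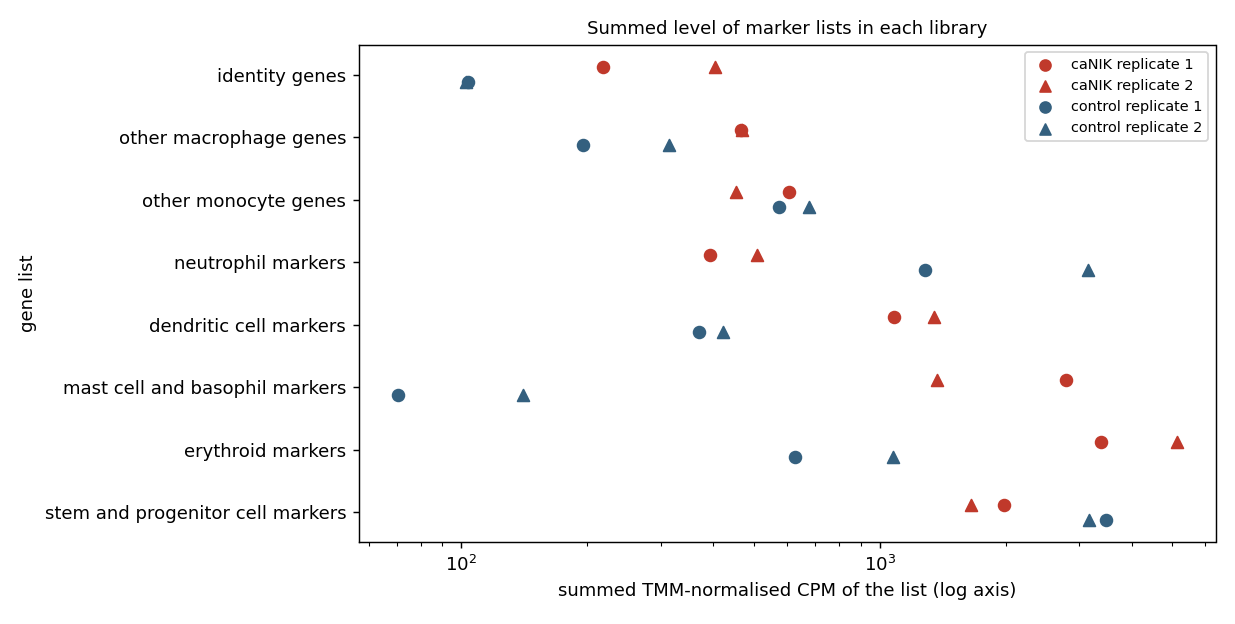
Summed TMM-normalised CPM of each marker list in each library, on a log axis, with caNIK above control in each row and the replicate shown by shape. The identity genes sum to 219 and 403 CPM in caNIK against 104 and 103 CPM in control, and stem and progenitor markers lie lower in caNIK. The neutrophil sum is also lower in caNIK, but overlaps without Mpo (333 and 442 CPM in caNIK against 244 and 637 CPM in control).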

How the data were processed

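RNA-seq of sorted mouse HSPC gave 2 caNIK and 2 control libraries, grouped by sample title. The authors deposited raw counts per gene symbol for each library, per the file headers and values. Build mm9 and the tools TopHat2 2.1.0, FastQC, DESeq2 1.10.1 and featureCounts 1.5.0 stand in the submitters' processing notes, with no role or order.

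The analysis used edgeR 4.0.16 in R 4.3.3: filterByExpr, TMM factors, and a two-sided quasi-likelihood test with group as its only term. Standard errors and 95% intervals come from its F statistic, and p-values were adjusted by Benjamini-Hochberg over all tested genes. The procedure was tested on simulated counts. Alternatives were DESeq2 1.42.0, limma-voom (limma 3.58.1), other scalings and filters, a replicate block, summed gene copies and each library left out; where that left 1 library in a group, it was assumed to vary like the others. List counts with a library left out and list sums without their most abundant gene were chosen after seeing the data.

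The identity genes and 20 further lists were chosen with earlier results of these data known. Named genes were the 8, the nearest in pattern, Map3k14, and from a list the 2 with the smallest p past the threshold in each direction, omitted for most lists of other cell types; Kit, Cd34, Emr1, Csf1r, Msr1, Vsig4, Tlr4, Ly96 and Ms4a6d were added after their values were seen. Emr1 and Irg1 were matched through RefSeq synonyms, and Ly6g and Ms4a4a were not matched. Transcripts were aligned with Biopython 1.88.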

Additional observations from a re-analysis of the deposited data

How the results depend on the processing

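The direction of Marco, Lyz1, Lyz2, Ms4a6c and Mrc1 held in every alternative run for them. Calls held for Lyz2 and Ms4a6c in all 13 alternatives each and for Marco in 11 of 12. For Lyz2 and Ms4a6c these include a fit with similar genes summed, which largely repeats their own counts. Cd68 and Fcgr1, which passed in no fit, turned sign with a library left out: log2 fold changes ran from -0.18 to 0.58 for Cd68 (-0.11 without caNIK replicate 1, -0.18 without control replicate 1) and from -0.31 to 2.18 for Fcgr1. Over all genes, lower calls numbered 1165, against 1766 with the replicate block and 747 to 1377 with a library left out (747 without control replicate 1). With the replicate block 1 identity gene, Mrc1, was lower (log2 fold change -1.50, edgeR adjusted p = 0.035), against 0 without it. Differences between replicates 1 and 2 correlated across genes at 0.213 between caNIK and control; the labels give no shared animal or batch, so the numbers were not treated as pairs. Scaling moved the median of all genes by less than 0.1 (log2). Of 160 counts of the further lists with a library left out, 123 were within 1.5 times. Cd14, with 2 to 10 counts a library, was tested only with no filter beyond 1 read. The cause of these shifts was not tested.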
